A study of Sus scrofa with 20 samples.

Results

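The caveolae genes were described in backfat and liver of Nanchukmacdon pigs, a Korean breed developed from the Jeju native black pig. The genes were taken by name as 8 proteins of the caveolar coat, CAV1, CAV2, CAV3, CAVIN1, CAVIN2, CAVIN3, EHD2 and PACSIN2, and 7 of them were matched to an Ensembl identifier of the count table, which holds 31907 genes. The identifiers were ENSSSCG00000016634 for CAV1, ENSSSCG00000016635 for CAV2, ENSSSCG00000035446 for CAVIN1, ENSSSCG00000026618 for CAVIN2, ENSSSCG00000014633 for CAVIN3, ENSSSCG00000023371 for EHD2 and ENSSSCG00000000036 for PACSIN2. CAV3, the caveolin of muscle, was not matched to an identifier and was skipped. All 7 matched genes passed the filter on low counts, which left 16275 genes to be tested. RNA-seq libraries of poly(A) RNA were made from 5 backfat and 5 liver samples of normal boars, with no treatment or genetic change in either group. Their age was 22 months in the sample labels, and the paper states a higher average age. Libraries were named by tissue and boar number (65, 67, 69, 71 and 72), as in the count table, and both tissues came from the same boars. The tissues were whole pieces made of several cell types.

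Caveolae are small flask-shaped pits of the plasma membrane. Caveolins form hairpins in the inner leaflet of the membrane and bind cholesterol, cavins add a coat from the cytoplasm, and EHD2 and PACSIN2 act on membrane shape at the neck and the bulb. Caveolae are abundant in adipocytes, endothelial cells and muscle cells, where they take part in lipid uptake, insulin signalling and protection of the membrane against stretch, and they are sparse in hepatocytes. In RNA from a whole tissue, fewer cells of a type and less RNA per cell cannot be told apart.

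In the RefSeq annotation of Sscrofa11.1, CAV1 was at chr18:29648120-29682451 and CAV2 at chr18:29699012-29707277, both on the minus strand. They were neighbours with 16560 bases and 0 other annotated genes between them, CAV2 lying upstream of CAV1. CAV1 had 4 annotated transcripts with 3 to 4 exons and CAV2 had 1 transcript with 3 exons. The cavins were apart from them and from each other, CAVIN1 at chr12:20372476-20390250 on the plus strand, CAVIN2 at chr15:96476675-96490231 on the minus strand and CAVIN3 at chr9:3378144-3379851 on the plus strand, with 2 exons each. EHD2 was at chr6:53423489-53442007 with 5 to 6 exons, and PACSIN2 at chr5:5853377-5985174 with 10 to 12 exons, both on the plus strand. CAVIN1 and PACSIN2 each overlapped 1 annotated gene on the opposite strand (LOC110256002 and LOC110260619). The authors' counting used no strand option, so reads of such overlaps could not be told apart.

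The 250 bases before the outermost annotated start are printed for 4 genes, CAV1 and EHD2 because their log2 fold changes were the largest of the 7, CAV2 because it is the neighbour of CAV1, and PACSIN2 because it differed from the other coat genes between tissues. Capitals mark each match to any of 3 motifs, searched on both strands, and a match on the other strand shows as the reverse complement. The GC box, bound by Sp1 and related factors, was searched as GGGCGG. The motif bound by the factor NF-Y, named the CCAAT box, was searched by the letters of its name. The TATA box, a core promoter element that positions the start, was searched as TATAAA.
CAV1 (chr18:29682452-29682701, minus strand): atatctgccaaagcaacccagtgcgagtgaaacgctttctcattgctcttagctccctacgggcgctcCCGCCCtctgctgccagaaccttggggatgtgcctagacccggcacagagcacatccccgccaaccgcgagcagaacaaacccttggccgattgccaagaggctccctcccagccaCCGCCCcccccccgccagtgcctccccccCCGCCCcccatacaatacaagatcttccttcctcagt
CAV2 (chr18:29707278-29707527, minus strand): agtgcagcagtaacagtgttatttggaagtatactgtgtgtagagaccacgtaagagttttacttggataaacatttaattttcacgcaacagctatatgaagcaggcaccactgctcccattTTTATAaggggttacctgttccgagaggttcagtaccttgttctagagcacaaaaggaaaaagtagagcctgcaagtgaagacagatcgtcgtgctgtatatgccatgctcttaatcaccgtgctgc
EHD2 (chr6:53423239-53423488, plus strand): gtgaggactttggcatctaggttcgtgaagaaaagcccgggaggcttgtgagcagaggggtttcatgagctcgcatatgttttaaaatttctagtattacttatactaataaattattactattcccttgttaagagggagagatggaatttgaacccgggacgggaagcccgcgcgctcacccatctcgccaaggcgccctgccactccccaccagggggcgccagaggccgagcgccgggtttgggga
PACSIN2 (chr5:5853127-5853376, plus strand): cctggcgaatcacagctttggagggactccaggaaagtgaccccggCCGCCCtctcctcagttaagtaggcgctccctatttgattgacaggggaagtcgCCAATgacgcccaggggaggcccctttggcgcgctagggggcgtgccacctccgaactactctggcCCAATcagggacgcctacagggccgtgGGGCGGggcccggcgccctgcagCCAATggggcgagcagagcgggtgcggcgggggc

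CAV1 held 3 matches to the GC box and no match to the other motifs. CAV2 held 1 match to the TATA box, 127 bases before the start and on the strand opposite to the gene. EHD2 held none of the 3 motifs, and PACSIN2 held 2 GC boxes and 3 CCAAT boxes. Of those not printed, CAVIN3 held 5 GC boxes and 1 CCAAT box, with 2 of its GC boxes overlapping by 1 base, CAVIN2 held 2 CCAAT boxes that overlap on opposite strands, and CAVIN1 held none of the 3. The E box CACGTG was searched too and was in none of the 7. Over 19556 promoters of the same length, 45.9% held the GC box, 31.9% the CCAAT box, 9.77% the TATA box and 6.39% the E box. The number of CpG sites was 13 in CAV1, 6 in CAV2, 6 in CAVIN1, 3 in CAVIN2, 22 in CAVIN3, 14 in EHD2 and 19 in PACSIN2, with a median of 12 over all promoters. CAVIN3 and PACSIN2 thus had the most CpG sites, and the neighbours CAV1 and CAV2 had unequal numbers. The starts come from the annotation, and the start used in these tissues was not measured.

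The libraries held between 43820042 and 61772737 counts. Library liver 67 stood apart from the other liver libraries, with 44.5% of its counts from 13 mitochondrial genes (6.38% to 20.2% in the others), a summed skeletal muscle marker level of 182 TMM-CPM (at most 1.62 in the others) and the lowest summed level of 6 hepatocyte markers. TMM-CPM is the count scaled to the size of its library (CPM) after normalization by the trimmed mean of M-values (TMM). Adipocyte markers were at 12367 to 15051 TMM-CPM in backfat and at 8.20 to 11.5 in liver, summed over 6 genes, and hepatocyte markers at 170.2 to 567 in backfat, where backfat 69 was highest, and at 25409 to 95957 in liver. The labelled tissues were therefore matched by their defining markers. Values without liver 67 or backfat 69 are given where they change a call of a gene, and for some of the genes that they move without changing a call.

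Of the 7 caveolae genes, 6 were higher in backfat (CAV1, CAV2, CAVIN1, CAVIN2, CAVIN3 and EHD2), 0 were higher in liver, and PACSIN2 was not called. The call required both a log2 fold change of 2 or more in size and an adjusted p no higher than 0.05. Adjusted p-values came from the quasi-likelihood test of edgeR, with the Benjamini-Hochberg method over every gene tested. The background of genes called higher in backfat was 11.1%. All 7 genes, PACSIN2 included, had every backfat library above every liver library, which held for 22.9% of all genes tested. The median log2 fold change of the 7 was 3.95, and that of all genes tested was 0.00. Summed over the 7 genes, the level was between 1930 and 2426 TMM-CPM in backfat and between 119 and 271 in liver, highest in liver 67. The 6 genes stayed called without liver 67 and backfat 69 together.

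CAV1 encodes caveolin-1, the structural protein without which non-muscle caveolae do not form. Its level in backfat was 145 TMM-CPM in boar 65, 83.3 in 67, 95.9 in 69, 79.2 in 71 and 69.1 in 72. In liver it was 2.59 in 65, 1.27 in 67, 2.59 in 69, 0.19 in 71 and 0.60 in 72, from 104, 47, 122, 6 and 22 counts. Boar 65 was highest in backfat, and the liver libraries fell into a higher group (65 and 69) and a lower one (71 and 72) with 67 between them. The means were 94.5 ± 29.8 (SD, n = 5) and 1.45 ± 1.11 (SD, n = 5), a log2 fold change of 6.0 ± 0.58 (SE) with an adjusted p of 2.67e-06 (edgeR). This was the largest of the 7 and rank 260 among 16275 genes, and within boars the fold was between 37.0 in boar 69 and 418 in boar 71. Without liver 71, which rests on the fewest counts, the log2 fold change of CAV1 was 5.71.

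CAV2 encodes caveolin-2, which joins caveolin-1 in mixed oligomers and needs it to reach the plasma membrane. In backfat CAV2 was at 149 TMM-CPM in boar 65, 204 in 67, 195 in 69, 199 in 71 and 171 in 72. In liver it was at 8.60 in 65, 14.3 in 67, 9.56 in 69, 6.48 in 71 and 10.5 in 72. CAV2 was lowest in backfat 65, where CAV1 was highest, and its liver levels were spread less than those of CAV1. The means were 184 ± 23.3 and 9.89 ± 2.90 (SD, n = 5 each), and the log2 fold change was 4.21 ± 0.23 (SE; adjusted p = 2.95e-08, edgeR).

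CAVIN1 encodes the cavin that is needed for the coat to assemble. It had the highest TMM-CPM of the 7 in backfat, at 744 in boar 65, 765 in 67, 859 in 69, 687 in 71 and 747 in 72. Its liver levels were 31.8 in 65, 133 in 67, 28.9 in 69, 59.1 in 71 and 55.5 in 72. Liver 67 was far above the others, and liver 65 and 69, which were highest in CAV1, were lowest in CAVIN1. The means were 760 ± 62.4 and 61.7 ± 42.1 (SD, n = 5 each), with a log2 fold change of 3.62 ± 0.41 (SE; adjusted p = 1.10e-05, edgeR), which was 4.08 without liver 67.

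CAVIN2 encodes a cavin that binds phosphatidylserine and shapes the membrane. It was at 212 TMM-CPM in boar 65, 290.2 in 67, 262 in 69, 218 in 71 and 228 in 72 in backfat, and at 18.1, 24.3, 15.9, 8.75 and 10.9 in the liver of the same boars. Boar 67 was highest in both tissues. The log2 fold change was 3.95 ± 0.29 (SE; adjusted p = 2.26e-07, edgeR), from means of 242 ± 33.1 and 15.6 ± 6.13 (SD, n = 5 each).

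CAVIN3 encodes a cavin known as a binding partner of protein kinase C delta. Its backfat levels were 191 TMM-CPM in boar 65, 174 in 67, 494 in 69, 279 in 71 and 269 in 72. In liver they were 7.71 in 65, 30.5 in 67, 9.11 in 69, 29.5 in 71 and 21.6 in 72. Backfat 69 was high, and liver 65 and 69 were low as for CAVIN1. The means were 281 ± 127 and 19.7 ± 10.9 (SD, n = 5 each), and the log2 fold change was 3.84 ± 0.46 (SE; adjusted p = 1.75e-05, edgeR), or 3.54 without backfat 69. Within boars the fold of CAVIN3 was between 5.70 in boar 67 and 54.2 in boar 69, the widest range after that of CAV1.

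EHD2 encodes an ATPase that sits at the neck of caveolae and holds them at the cell surface. It was at 484 TMM-CPM in boar 65, 360.0 in 67, 432 in 69, 445 in 71 and 343 in 72 in backfat. In liver it was at 8.60 in 65, 15.2 in 67, 6.94 in 69, 6.19 in 71 and 7.92 in 72, from 196 to 563 counts. Liver 67 was again above the others. The log2 fold change was 5.52 ± 0.30 (SE; adjusted p = 2.84e-08, edgeR), the next after CAV1 and rank 314 among all genes tested, from means of 413 ± 59.4 and 8.97 ± 3.60 (SD, n = 5 each).

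PACSIN2 encodes an F-BAR protein that bends membranes in caveolae and in other endocytic pits. In backfat it was at 92.2 TMM-CPM in boar 65, 112 in 67, 87.8 in 69, 104 in 71 and 102 in 72. In liver it was at 57.0 in 65, 52.2 in 67, 45.7 in 69, 59.3 in 71 and 55.0 in 72. The tissues did not overlap, and both were narrow, with no library apart from the rest. The means were 99.7 ± 9.64 and 53.8 ± 5.25 (SD, n = 5 each), and the log2 fold change was 0.89 ± 0.14 (SE; adjusted p = 0.000154, edgeR), with an approximate 95% interval from 0.62 to 1.16, under the threshold of 2. PACSIN2 was higher in backfat in 5 of 5 boars, by 1.62- to 2.14-fold.

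**Figure D1:**
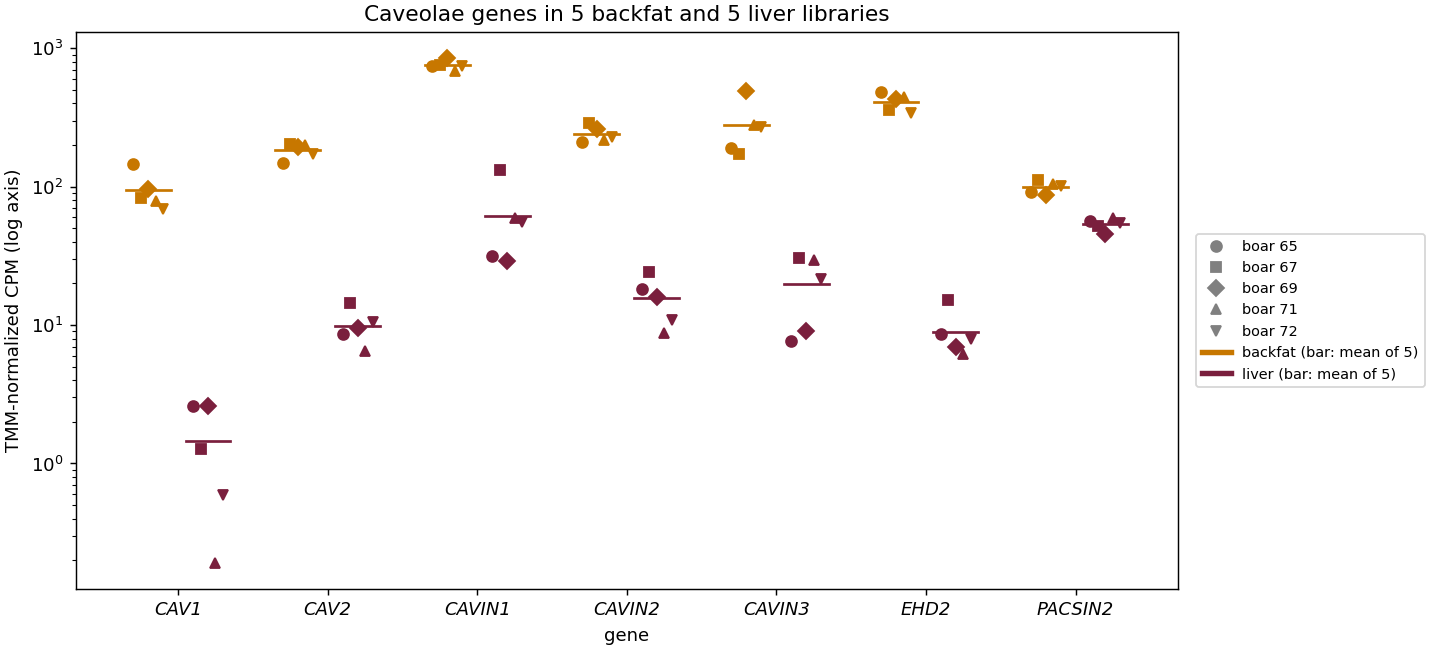
TMM-normalized CPM (log axis) of the 7 caveolae genes in each backfat and liver library, with a marker for each boar and a bar for the mean of 5. Every gene has its backfat libraries above its liver libraries, by the widest gap in CAV1 (means of 94.5 and 1.45) and the narrowest in PACSIN2 (99.7 and 53.8).

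Levels between genes were compared per length, as TMM-CPM per kb of the length in the count table. The order of the genes depends on these annotated lengths, from 1167 bases for CAVIN3 to 7920 for CAVIN1. In backfat the mean level per kb was 241 for CAVIN3, 118 for EHD2, 96.0 for CAVIN1, 61.99 for CAV1, 60.0 for CAV2, 44.6 for CAVIN2 and 23.8 for PACSIN2. Only CAVIN3 over EHD2 and CAVIN2 over PACSIN2 were neighbours in this order whose ranges over libraries did not overlap, and CAV1 was above CAV2 in 1 of 5 libraries. Compared within each backfat library, EHD2 was above CAVIN1 and CAV2 above CAVIN2 in 5 of 5, and CAVIN1 above CAV1 in 4. In liver the mean level per kb was 16.9 for CAVIN3, 12.9 for PACSIN2, 7.79 for CAVIN1, 3.23 for CAV2, 2.87 for CAVIN2, 2.57 for EHD2 and 0.95 for CAV1. There, EHD2 over CAV1 was the only step without overlap. Compared within each liver library, CAVIN1 was also above CAV2 in 5 of 5, and the remaining steps held in 3 or 4. PACSIN2 was thus last of the 7 in backfat and next to CAVIN3 in liver, and CAV1 was last in liver. By level per kb, 3.23% of all genes tested were above CAV1 in backfat and 67.6% in liver, while for PACSIN2 the shares were 9.03% and 19.0%.

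Ratios between genes of the same library do not depend on the scaling between libraries, and 6 such ratios of raw counts were compared, with 1 count added to each gene. The ratio of CAV2 to CAV1 was 1.03 in backfat 65, 2.45 in 67, 2.04 in 69, 2.51 in 71 and 2.48 in 72. In liver it was 3.30 in 65, 11.1 in 67, 3.67 in 69, 29.4 in 71 and 16.9 in 72. Every liver library was above every backfat library, so that CAV1 was 28.5% to 49.4% of the counts of both caveolins in backfat and 2.84% to 23.2% in liver. The difference in mean log2 ratio, backfat minus liver, was -2.20, from 1.00 ± 0.55 and 3.20 ± 1.38 (SD, n = 5 each; exact two-sided permutation test, p = 0.00794, adjusted over 6 ratios 0.0159). This p is the smallest that the 252 arrangements can give.

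The same held for 2 other ratios to CAV1, both with the same exact permutation p. These and the ratio of CAV2 to CAV1 share CAV1 as the denominator, so they are not independent of each other. CAVIN1 to CAV1 had a mean log2 ratio of 3.05 ± 0.41 in backfat and 5.66 ± 2.03 in liver (SD, n = 5 each), a difference of -2.60 (exact permutation test, adjusted p = 0.0159). Its tissues were only just apart, with 3.43 in the highest backfat library and 3.47 in the lowest liver library. PACSIN2 to CAV1 was at 0.12 ± 0.51 and 5.69 ± 1.61, a difference of -5.57 (exact permutation test, adjusted p = 0.0159). With 10 counts added to each gene, the differences were -1.82 for CAV2, -2.19 for CAVIN1 and -5.14 for PACSIN2 relative to CAV1. The adjusted p was then 0.0238, 0.0317 and 0.0238 (exact permutation tests). With 1 count added, all 3 ratios were lower in backfat in 5 of 5 boars. With boars paired, the exact sign-flip test gave p = 0.0625 for each, the smallest that 5 boars allow, and an adjusted p of 0.125. CAV2 and CAVIN1 relative to CAV1 also lost the call without any 1 of the backfat libraries, with adjusted p between 0.0714 and 0.111 (exact permutation tests) and differences between -2.70 and -1.96. Without any 1 of the liver libraries the adjusted p of all 3 ratios was 0.0159 (exact permutation tests). Without liver 67 and backfat 69 together the differences were -2.15, -2.38 and -5.59, and the adjusted p was 0.0571 for all 3, the smallest that this design of 4 against 4 libraries allows for 3 tied ratios.

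For EHD2 and the other cavins a difference in ratio was not shown. The log2 ratio of EHD2 to CAV1 was 2.17 ± 0.28 in backfat and 3.04 ± 1.43 in liver (SD, n = 5 each), a difference of -0.87 (exact permutation test, p = 0.206, adjusted 0.310), lower in backfat in 3 of 5 boars. Among the cavins, CAVIN2 to CAVIN1 was at -1.66 ± 0.16 and -1.84 ± 0.93, a difference of 0.18, and CAVIN3 to CAVIN1 at -1.53 ± 0.54 and -1.64 ± 0.47, a difference of 0.10 (exact permutation tests, adjusted p = 0.754 each). The small differences turned in sign without liver 71 for CAVIN2, and without liver 67 or backfat 69 for CAVIN3.

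**Figure D2:**
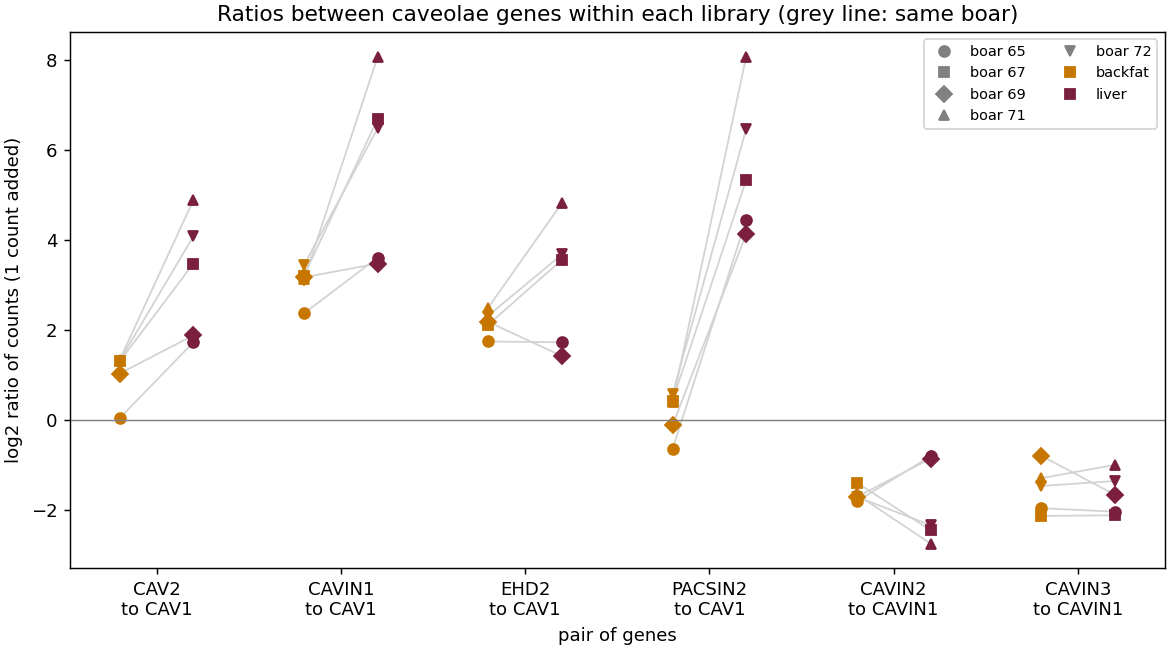
log2 ratio of raw counts between 2 caveolae genes within each library, with backfat at the left and liver at the right of each ratio and a grey line between the libraries of a boar. With 1 count added, CAV2, CAVIN1 and PACSIN2 relative to CAV1 are higher in every liver library than in any backfat library. For CAVIN1 the gap is narrow (3.43 in the highest backfat library and 3.47 in the lowest liver library). The other cavins relative to CAVIN1 overlap between tissues.

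Within a tissue the 7 genes had unequal spreads. In backfat the coefficient of variation was 8.21% for CAVIN1, 9.68% for PACSIN2, 12.7% for CAV2, 13.7% for CAVIN2, 14.4% for EHD2, 31.6% for CAV1 and 45.3% for CAVIN3. In liver it was 9.76% for PACSIN2, 29.3% for CAV2, 39.3% for CAVIN2, 40.1% for EHD2, 55.2% for CAVIN3, 68.3% for CAVIN1 and 76.9% for CAV1. PACSIN2 varied least in liver. All 7 genes had larger coefficients in liver than in backfat, though those of PACSIN2 were nearly equal (9.76% and 9.68%). For EHD2 this rested on liver 67, without which its liver coefficient was 14.3%, and for CAVIN3 it was lost without liver 65, at 43.6%. The liver coefficient of CAVIN1 was 35.7% without liver 67. In backfat that of CAV1 was 13.6% without boar 65, that of CAV2 7.54% without boar 65, that of CAVIN1 4.60% without boar 69 and that of CAVIN3 23.5% without boar 69. CAV1 was above its liver mean on the log2 scale in liver 65 and 69, by 0.89 in each, where CAVIN1 was below its own mean by 0.72 and 0.85 and CAVIN3 by 1.09 and 0.86. CAVIN1 and CAVIN3 were on the same side of their means in 5 of 5 liver libraries. In liver 67 the 6 called genes were all above their means, CAVIN1 by 1.33, CAVIN3 by 0.83, EHD2 by 0.80, CAVIN2 by 0.71, CAV2 by 0.56 and CAV1 by 0.09. In liver 71 CAV1 was below its mean by 1.27 and CAVIN3 above it by 0.78. Liver 65 and 69 also had the lowest shares of mitochondrial counts (6.97% and 6.38%), against 20.2% in liver 71 and 44.5% in liver 67, and the part of this in the spread was not tested.

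**Figure D3:**
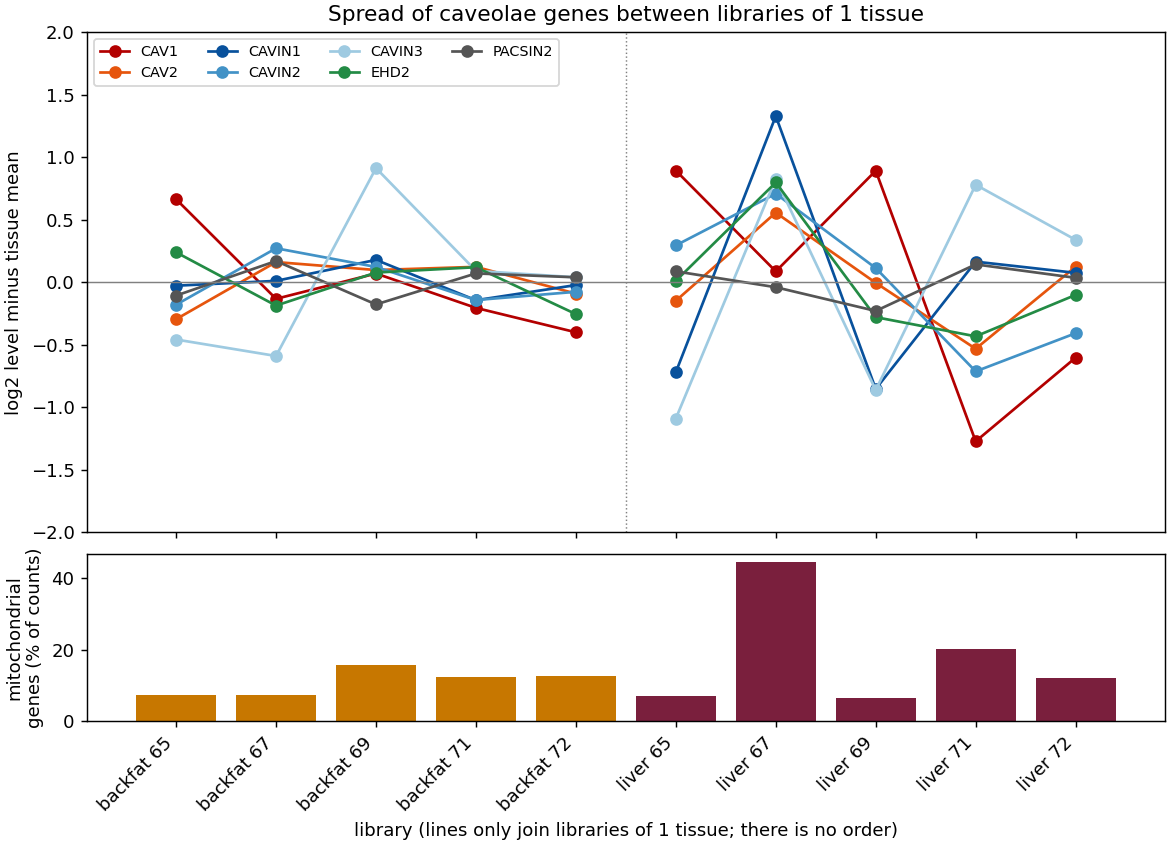
Upper panel, log2 TMM-CPM of each caveolae gene minus its mean over the 5 libraries of the tissue. Lower panel, percent of counts from 13 mitochondrial genes. CAV1 is above its liver mean in liver 65 and 69, where CAVIN1 and CAVIN3 are below theirs, and liver 67 is high for CAVIN1, EHD2 and mitochondrial genes.

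Markers of the cell types that carry caveolae moved with the tissues in part. Adipocyte markers were called higher in backfat in 6 of 6 genes, with ADIPOQ at a mean of 0.034 TMM-CPM and LEP at 0.0042 in liver, both near 0 there. Endothelial markers were called higher in backfat in 4 of 6 genes tested, and their sum was at 751 to 1275 TMM-CPM in backfat and at 143 to 209 in liver. The median log2 fold change was 11.8 for the adipocyte list, 5.76 for the fibroblast list, 2.35 for the endothelial list and 1.46 for the smooth muscle and pericyte list. Smooth muscle and pericyte markers were higher in 2 of 6 genes, at 561 to 941 against 137 to 359.8 with liver 67 highest, and fibroblast markers in 5 of 5. Of 5 skeletal muscle markers tested 0 were called by edgeR and 0 had an unadjusted p under 0.05, with sums of 12.1 to 431 in backfat and of 0.59 to 182 in liver. Backfat 65 had the highest of the backfat sums, and the other backfat libraries were at most 168. Without liver 67 all 5 skeletal muscle markers were called higher in backfat, with a median log2 fold change of 6.84, and of the 6 smooth muscle and pericyte markers 3 were. Sinusoidal endothelial markers were higher in liver in 2 of 3 genes tested. Over all genes tested with every library, 11.1% were called higher in backfat and 11.2% higher in liver. How much of the difference in caveolae genes goes with the makeup of the tissues was not tested.

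The genes of caveolae and related membrane pits beyond these 7 were described by 5 lists, with 31 genes tested. They moved less as a whole, with 6 higher in backfat, 2 higher in liver and 23 not called, and a median log2 fold change of 0.30. CD36 and CLTB of these lists were not matched to an identifier. The background of genes called was 22.3% in either direction, 11.1% higher in backfat and 11.2% higher in liver.

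Of 6 paralogs of the coat genes, 0 were higher in backfat and 2 were higher in liver. CAVIN4, the cavin of muscle cells, was at 0.17 to 0.47 TMM-CPM in backfat, from 10 to 28 counts, and at 1.54 to 3.79 in liver. Its log2 fold change was -3.03 ± 0.40 (SE; adjusted p = 3.51e-05, edgeR), at low levels in both tissues and with liver 67 the lowest of the liver libraries. EHD3, an ATPase of endosomal recycling, was at 1.13 to 4.41 in backfat and at 11.8 to 24.1 in liver, with a log2 fold change of -2.79 ± 0.36 (SE; adjusted p = 3.00e-05, edgeR). EHD2 and EHD3 were thus called in opposite directions. PACSIN3 was at 31.1 to 36.0 in backfat and at 86.6 to 169 in liver, and its log2 fold change of -1.99 ± 0.18 (SE; adjusted p = 1.59e-06, edgeR) was just short of the threshold, which it passed in 7 of 20 alternative settings, among them without liver 67 (-2.14), backfat 65 (-2.01) or liver 72 (-2.04). EHD1, EHD4 and PACSIN1 had log2 fold changes of 0.17, 1.18 and 0.45 and were not called.

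Of 5 genes of the neck and scaffold, 1 was called, against 22.3% of all genes tested. DNM1, a dynamin that cuts pits from the membrane, was at 53.0 to 99.7 TMM-CPM in backfat and at 2.54 to 12.5 in liver, with a log2 fold change of 3.55 ± 0.42 (SE; adjusted p = 1.36e-05, edgeR). The other dynamins DNM2 and DNM3 had log2 fold changes of 0.30 and -0.62, the actin linker FLNA 1.57 and the cavin-binding receptor ROR1 1.00. FLNA was high in liver 67, at 326 TMM-CPM against 105 to 147 in the other liver libraries, and without liver 67 and backfat 69 its log2 fold change of 2.05 passed the threshold.

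Of 10 genes of caveolar cargo and signalling tested, 5 were higher in backfat and 0 in liver, against 11.1% and 11.2% of all genes tested. The largest log2 fold changes were those of PTGIS, prostacyclin synthase, at 3.70 ± 0.38 (SE; adjusted p = 4.55e-06, edgeR) and SLC2A4, the insulin-regulated glucose transporter GLUT4, at 3.25 ± 0.29 (SE; adjusted p = 1.29e-06, edgeR). SLC2A4 was at 50.5 to 125 TMM-CPM in backfat and at 5.94 to 11.2 in liver. The endothelial nitric oxide synthase NOS3 (2.14), the receptor TGFBR1 (2.19) and the VEGF receptor KDR (2.05) passed the threshold by little. None of these 3 passed edgeR's glmTreat, which tests against a log2 fold change of 2, and KDR was called in 14 of 20 alternative settings. KDR lost its call without liver 67 (1.92), backfat 69 (1.956), backfat 65 (1.92) or liver 71 (1.92). The insulin receptor INSR had a log2 fold change of -1.50 and was at 79.8 TMM-CPM in liver 67 and at 17.7 to 32.9 in the other liver libraries, and without liver 67 its log2 fold change was -0.95.

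The flotillins and stomatin, which mark flat rafts, and the clathrin coat had smaller fold changes than the called caveolae genes. FLOT1, FLOT2 and STOM had log2 fold changes of 1.41, 0.72 and -0.37, and 0 of 3 were called by edgeR, with FLOT1 called only when library size alone was used. Of 7 genes of the clathrin coat, 0 were called by edgeR and 0 separated the tissues without overlap in either direction, against 42.6% of all genes tested, and 0 were called in any of the 20 alternative settings. An unadjusted p under 0.05 was reached by 2, AP2M1 at -0.59 and AP2S1 at -0.53. Their adjusted p was 0.0132 and 0.0355 (edgeR), and both were under the threshold on log2 fold change in size. The median log2 fold change of the clathrin coat list was 0.08. The summed clathrin coat level was between 619 and 724 TMM-CPM in backfat and between 666 and 732 in liver. When only library size was used for scaling, the median of all genes moved from 0.00 to 0.71 in log2 fold change, and DNM3, STOM, SRC, BMPR2, AP2A1, AP2M1 and AP2S1 turned in sign.

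**Figure D4:**
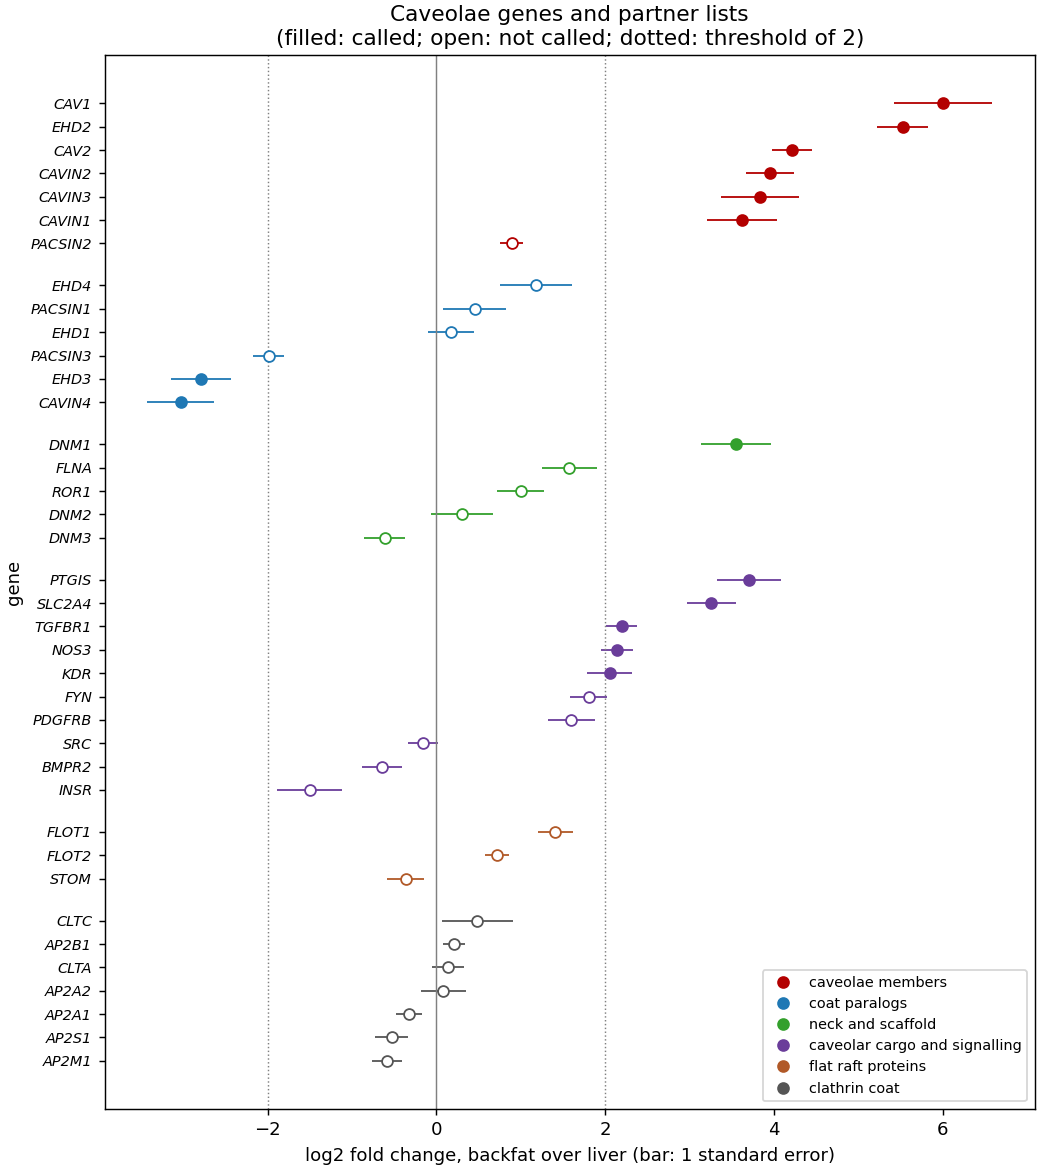
log2 fold change (backfat over liver, bar of 1 SE) of the 7 caveolae genes and 31 genes of 5 partner lists, filled where called. The caveolins, cavins and EHD2 lie between 3.62 and 6.0, PACSIN2 at 0.89, and the clathrin coat between -0.59 and 0.48.

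The genes with the most similar pattern to CAV1 and to CAVIN1 were sought among 8141 genes with a symbol and a mean of at least 10 TMM-CPM, by the root mean square difference of log2 levels over the 10 libraries after each gene was centred on its mean. Nearest to CAV1 were ITM2A (0.62), COL5A2 (0.64), EHD2 (0.64), SDR16C5 (0.64) and ADCYAP1R1 (0.68). EHD2 was thus the nearest caveolae gene to CAV1, at rank 3, followed by CAVIN2 at rank 95 and CAV2 at rank 96, and PACSIN2 was at rank 1636. Nearest to CAVIN1 were VIM (0.23), VWA1 (0.25), ZNF423 (0.28), NES (0.29) and KCTD17 (0.30). Of the caveolae genes, CAVIN3 was at rank 56 from CAVIN1, CAV2 at 93, CAVIN2 at 147, EHD2 at 404, CAV1 at 1019 and PACSIN2 at 1421. The distance includes the difference between tissues, and the 0.5 CPM added before the log limits it for genes near 0 in liver, such as CAV1.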

How the data were processed

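RNA-seq counts per gene were deposited by the authors as raw counts for 10 libraries, made with HISAT2 and featureCounts 2.0.1 on Sscrofa11.1 with the annotation of Ensembl release 99; gene lengths were taken from the same table. Totals were between 43820042 and 61772737 counts per library. The WGBS files of the same tissues give cytosine calls by read position without genomic position and were not used for genes. Symbols were taken from a table of Ensembl identifiers, which named 15029 of 31907 genes.

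In R 4.3.3, edgeR 4.0.16 was used with filterByExpr, TMM and the functions glmQLFit and glmQLFTest, tissue being the sole term, and Benjamini-Hochberg adjustment over 16275 genes. The alternatives were RLE factors, library size alone, other filters, DESeq2 1.42.0, limma 3.58.1 voom, glmTreat, the boar as a block, no mitochondrial genes, and leaving out libraries. Coefficients of variation without each library, and marker lists without liver 67 or backfat 69, were added after seeing the data. Scripts were tested on simulated data. Ratios were compared by exact permutation tests in Python 3.11.15. Boar numbers pair the libraries, since the study took both tissues from the same 5 boars. Deviations from tissue means correlated at 0.036 to 0.23 within boars, and 3 of 5 backfat libraries correlated best with the liver of their own boar. Replicate numbers of the sample labels were not matched to boars. Each library is 1 tissue of 1 boar, so that p-values measure the spread between boars within a tissue. Libraries of the same boar were treated as independent in the main edgeR fit and in the permutation tests.

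Genes were named by a rule: the 8 caveolae genes, the genes of the partner lists, the marker lists by their sums, and the 5 nearest patterns to CAV1 and CAVIN1. The genes and lists were chosen with earlier results of these data known. Positions and promoters come from RefSeq on the same build, whose gene models can differ from those counted. Protein sequences were not used here.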

Additional observations from a re-analysis of the deposited data

Results flagged for a closer look

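Dixon's test marked the highest or lowest library of a tissue where more than 0.71 of the spread of the 5 libraries lay between it and its neighbour. Of 88 groups of 5 libraries tested over the caveolae genes, their ratios and the partner genes, 8 were marked, and chance gives about 1 in 20. CAVIN1 was highest in liver 67, at 133 TMM-CPM, and EHD2 was highest there too, at 15.2. The log2 ratio of CAV2 to CAV1 was lowest in backfat 65, at 0.036. Among partner genes, liver 67 was highest in FLNA (326 TMM-CPM) and INSR (79.8) and lowest in CLTA (62.02) and AP2A1 (84.8), and backfat 67 was lowest in EHD1 (58.6). Liver 67 thus gave 6 of the 8, and it was also the liver library with the largest share of mitochondrial counts and the highest skeletal muscle markers.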

How the results depend on the processing

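Of 132 alternative values of the log2 fold changes of the 7 caveolae genes, all kept their direction and their side of the threshold, with CAV1 between 5.71 and 6.65 and PACSIN2 between 0.83 and 1.61. CAV1 could not be tested where each library had to hold 10 counts or more, which left 5 of 6 genes called, and 6 were called in the other 19 alternatives. The replicate block by boar changed no call of a caveolae or partner gene. The number of partner genes called was 8, with 5 under glmTreat, 12 with library size alone and 7 to 9 when each library was left out. With the replicate block (sign-flip over boars) the differences were -2.20 for CAV2 to CAV1, -2.60 for CAVIN1 to CAV1 and -5.57 for PACSIN2 to CAV1, with an adjusted p of 0.125, in a design whose smallest p is 0.0625. Without liver 67 and backfat 69 they were -2.15, -2.38 and -5.59 (adjusted p = 0.0571, exact permutation tests, the smallest that 4 against 4 libraries allow for 3 ratios tied among 6), and CAVIN3 to CAVIN1 turned to -0.20. When each library was left out in turn, CAV2 to CAV1 was between -2.58 and -1.79 and CAVIN1 to CAV1 between -3.15 and -2.003, neither called without any 1 backfat library and both called without any 1 liver library. CAVIN3 to CAVIN1 was then between -0.080 and 0.26 and turned in sign without backfat 69 (-0.080) and without liver 67 (-0.017). CAVIN2 to CAVIN1 was between -0.042 and 0.44 and turned in sign without liver 71 (-0.042). Over all results, 229 of 250 alternative values stayed in direction, side of the threshold or, for counts of calls, within 1.5 times the reported count. Depth limits CAV1 in liver most, where 1 library holds 6 counts.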
